A study of Mus musculus with 6 samples.

Results

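Nmi encodes an interferon-inducible protein that has no known enzymatic activity and works by binding other proteins. The genes described are Nmi, 5 genes whose proteins are known to bind it (Ifi35, Myc, Mycn, Brca1 and Sox10) and Max, which encodes the dimer partner of the Myc proteins. They were taken by name, not by their measured values, and all 7 were found among the 17739 gene symbols of the expression table. RNA was sequenced from mammary epithelial organoids, fragments of the milk-producing epithelium that are freed from the gland by enzymes. All mice were of the FVB strain on lactation day 1. The 2 groups were 3 wild-type mice and 3 mice with a conditional knockout, labelled Nmi-/-, and each library came from pooled glands of 1 mouse. No other treatment is named for either genotype. The series description gives the question as how loss of Nmi contributes to excess proliferation of the mammary epithelium. The Cre driver, the deleted exons and the age of the mice are named in no source used here.

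NMI was found through its binding to N-Myc, the product of Mycn, and also binds c-Myc and most STAT proteins, the transcription factors that carry cytokine signals to the nucleus. IFI35 is its closest relative by domain structure, and the proteins form a complex that interferon induces. Myc proteins bind DNA at E-boxes only as dimers with MAX, and MAX also pairs with the MXD proteins and MNT, which oppose MYC. BRCA1, a DNA repair protein and breast cancer suppressor, has been described in a complex with NMI and MYC that holds down transcription of the telomerase gene Tert. SOX10, a transcription factor of the neural crest and of mammary epithelial cells with progenitor properties, binds NMI as well.

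Promoter windows from RefSeq (GRCm38.p6, 250 bases before to 50 after each annotated start, 300 in all) were at hand for 5 of the 7 genes and were searched on both strands for 3 motifs. These were the gamma-activated sequence to which STAT dimers bind (TTCNNNGAA), the core of the interferon-stimulated response element (GAAA, any 2 bases, GAAA) and the E-box of MYC and MAX (CACGTG). Among all 32851 windows of the same length, 8.30%, 3.44% and 7.15% held them. There was 1 match in the window of Ifi35, a gamma-activated sequence that begins at base 8 of the transcript, and 1 in that of Max, an E-box that begins 3 bases before the start. These 2 stretches, 70 bases before to 20 after the start, are shown because they hold letters known for the partners themselves, STAT and MYC-MAX. Capitals mark the match. A match is a description of the sequence, not a measured binding site.
Ifi35, chr11:101448342-101448431, plus strand: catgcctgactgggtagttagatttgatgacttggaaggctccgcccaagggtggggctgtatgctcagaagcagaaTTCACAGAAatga
Max, chr12:76962229-76962318, minus strand: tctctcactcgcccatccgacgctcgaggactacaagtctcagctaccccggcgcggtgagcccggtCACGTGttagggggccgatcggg

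Epithelial markers were abundant in the libraries, which differed from one another in how much milk RNA they held. Levels are FPKM, fragment numbers scaled to gene length and to the library's total. Summed FPKM of 6 luminal markers ran from 1041 to 5195 and of 6 basal markers from 293 to 1063, against 4.85 to 7.44 for 6 immune, 15.2 to 36.6 for 5 fibroblast and 40.3 to 77.6 for 4 endothelial markers. The 4 adipocyte markers summed to 157 to 672 FPKM, nearly all of it Fabp4, with Adipoq at 0 to 0.0957 FPKM and Plin1 at 0 to 0.0191 FPKM. A list of 19 milk genes accounted for 48.0%, 61.3% and 70.8% of all FPKM in wild-type replicates 1 to 3 and for 67.1%, 63.6% and 76.7% in knockout replicates 1 to 3. Wild-type replicate 1, with the smallest milk share, had the highest FPKM of the 6 libraries for 63.5% of the 9767 genes tested. Knockout replicate 3, with the greatest milk share, had the lowest for 65.8% of them. These 2 libraries therefore stand apart, and fold changes of the members tested are given with and without them. The depth was estimated from the smallest FPKM steps at 26.6 M to 31.5 M fragments per library. Gapdh was listed at 0 to 0.0769 FPKM, so zeros and very low entries may be failed estimates.

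Nmi was the member with the clearest difference: its RNA was lower in each knockout library than in each wild-type library. The gene lies at chr2:51948487-51973494 on the minus strand of GRCm38, with 6 annotated transcripts and no overlapping gene. It was measured at 4.60 FPKM in wild-type replicate 1, at 2.82 in replicate 2 and at 2.32 in replicate 3. In the knockout it stood at 0.188 FPKM in replicate 1, at 0.547 in replicate 2 and at 0.564 in replicate 3. The highest knockout value was thus below the lowest wild-type value, and knockout RNA was reduced but detected. The means were 3.25 ± 1.19 FPKM in wild type against 0.433 ± 0.213 in the knockout (SD, n = 3 mice), a 7.50-fold lower level. At the estimated depth this corresponds to 138, 82 and 78 fragments in wild-type replicates 1 to 3 and to 6, 19 and 18 in the knockout. The exact Poisson intervals were 61.7 to 97.3 fragments for the lowest wild-type library and 11.4 to 29.7 for the highest knockout library, and cover counting error only. In bulk RNA, fewer cells with Nmi and less Nmi RNA per cell cannot be told apart.

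On the log2(FPKM + 1) scale, which understates changes of low genes, Nmi differed by -1.54 (SE 0.23, 95% confidence interval -2.06 to -1.03). The limma fit gave an unadjusted p of 3.81e-05 and an adjusted p of 0.372 (Benjamini-Hochberg over 9767 genes), which did not pass 0.05. An exact permutation test of this gene, two-sided, returned p = 0.1, below which 3 against 3 mice cannot go. With a pseudocount of 0.1 instead of 1 the log2 fold change was -2.69. Without wild-type replicate 1 and knockout replicate 3 together, and with a pseudocount of 1, it was -1.39. Nmi passed the filter on low values (at least 1 FPKM in at least 3 libraries) only through the wild-type libraries, since each knockout library was under 1 FPKM. The value is therefore a check of the genotype labels and is not counted as support for a wider effect. The deleted exons are not named, so fragments of a shortened transcript could be among the knockout fragments.

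**Figure D1:**
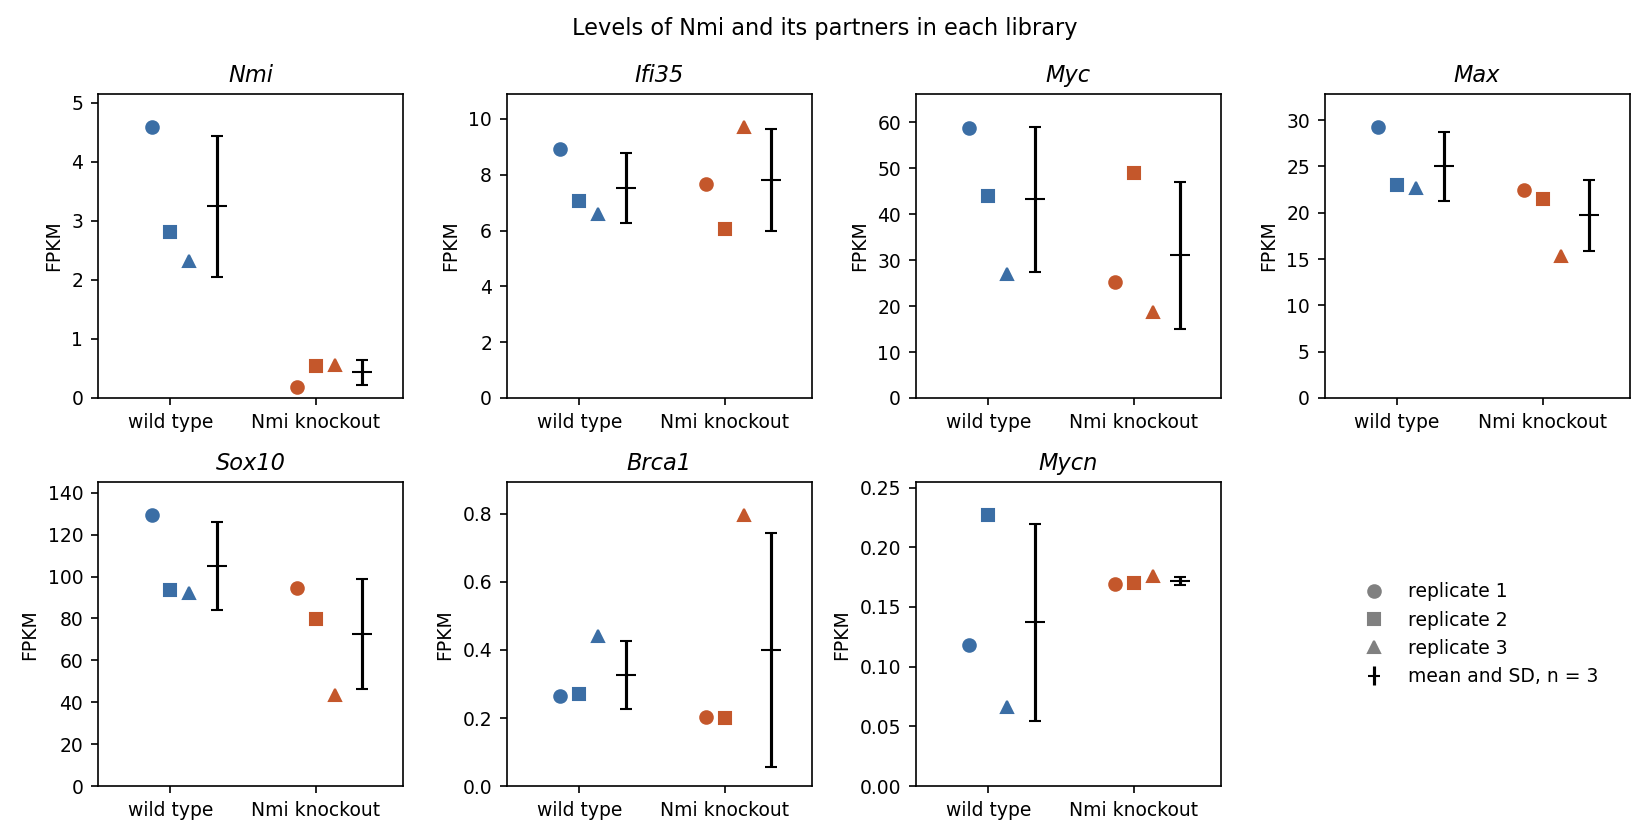
FPKM of the 7 genes in each library (points; circle, square and triangle are replicates 1 to 3), with the mean and SD of the 3 wild-type and the 3 Nmi knockout libraries beside them; each panel has its own axis from 0. Nmi is at 2.32 or more in wild type and at 0.564 or less in the knockout, Max is separated by a narrow gap (22.7 against 22.4), and the groups overlap for the other genes.

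Of the 7 genes, 5 passed the filter (Nmi, Ifi35, Myc, Max and Sox10), and Mycn and Brca1 did not. At an adjusted p under 0.05 the limma fit called 0 of these 5, against 0% of all genes tested. At an unadjusted p under 0.05 it called 1, Nmi, against 1.33% of all genes, of which 1.15% were lower and 0.184% higher in the knockout. The wild-type and knockout values did not overlap, with the knockout lower, for Nmi and Max, against 3.83% of all genes, and for 0 members with the knockout higher, against 0.778%. The knockout mean was lower for 4 of the 5, against 81.7% of all genes, so a lower mean was what most genes showed. These counts include Nmi, the targeted gene, which passed the filter only through the wild-type libraries and serves as a label check. Of the other members tested, Max alone was apart, and the smallest unadjusted p was 0.116, for Sox10 (limma). Sox10, Myc and Max had the lower knockout mean and Ifi35 the higher. Over all genes tested, the log2 fold change had a median of -0.21. Relative to it, Nmi stood at -1.33, Sox10 at -0.37, Myc at -0.30, Max at -0.13 and Ifi35 at 0.24. As deposited, 13.8% of the 130 genes with an unadjusted p under 0.05 had the higher mean in the knockout. That share was 48.2% after trimmed-mean rescaling, 42.5% after scaling to all FPKM outside milk genes and 47.1% after quantile normalization, and the median of all genes was then -0.04, -0.03 and -0.02.

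FPKM is per length, so the levels of these genes can be set side by side. In each wild-type library the order was Sox10, Myc, Max, Ifi35, Nmi, Brca1 and Mycn, from 105 ± 21.2 FPKM for Sox10 to 0.137 ± 0.0823 FPKM for Mycn (SD, n = 3). Only for Myc and Max did the wild-type ranges of neighbours in this order overlap. Nmi itself was at 2.32 to 4.60 FPKM in wild type. Its rank ran from 6367 to 12257 of 17739 in the 6 libraries, and the last of these was in a knockout library. Sox10 was a gene of high level, between rank 193 and rank 402. In the knockout, the range of Nmi, 0.188 to 0.564 FPKM, overlapped that of Brca1, 0.199 to 0.797 FPKM.

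Ifi35, which encodes the partner that forms the interferon-induced complex with NMI, had overlapping levels in the genotypes. The gene lies at chr11:101448407-101458698 on the plus strand, its stretch around the start is printed above, and it overlaps the annotated gene Gm11626, whose reads could not be separated if the counting ignored strand, which no source used here states. Wild-type replicates 1 to 3 had 8.93, 7.05 and 6.59 FPKM, and knockout replicates 1 to 3 had 7.66, 6.05 and 9.73 FPKM. The knockout held both the highest and the lowest library, so the groups overlap throughout. Its log2 fold change came to 0.04 (SE 0.25, 95% confidence interval -0.51 to 0.58, limma adjusted p = 0.951, exact permutation p = 0.9). It was -0.12 without knockout replicate 3 and -0.04 without wild-type replicate 3, so the data do not fix its direction. A difference within that interval was not resolved by 3 against 3 mice. The ratio of Nmi to Ifi35 was 0.514, 0.399 and 0.353 in wild-type replicates 1 to 3 and 0.0245, 0.0904 and 0.0580 in the knockout, which mirrors the values of Nmi.

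The other proteins known to associate with NMI were taken from a list of 11 genes for STAT proteins, the acetyltransferases CBP and p300, IRF7, TRIM21 and TLR4. Of the 10 that were tested, 0 passed the adjusted threshold and 0 an unadjusted p under 0.05, and 6 had a higher and 4 a lower mean in the knockout, with a median log2 fold change of 0.06. The 2 most abundant were Stat3, which drives involution at the end of lactation, with 82.3 ± 14.1 FPKM in wild type against 84.8 ± 16.0 in the knockout, and Stat6, a mediator of interleukin signals, with 21.9 ± 2.24 and 19.6 ± 2.76 FPKM (SD, n = 3 mice). Stat5a, which carries the prolactin signal to milk genes, had 6.20, 12.7 and 16.0 FPKM in wild-type replicates 1 to 3 and 23.7, 11.7 and 18.8 FPKM in the knockout. Its log2 fold change was 0.63 (SE 0.36, limma adjusted p = 0.768), and it depended on single libraries. It was 0.27, 0.73 and 0.89 when wild-type replicates 1 to 3 were left out in turn. For knockout replicates 1 to 3 it was 0.41, 0.89 and 0.58. With wild-type replicate 1 and knockout replicate 3 both left out it was 0.21. Without knockout replicate 2 its groups did not overlap, as for 394 of the 9767 genes tested with the knockout higher. The low value of wild-type replicate 1 lay beside that library's low milk share; the part of the milk share was not tested. Ep300, which encodes p300, had 6.78 ± 1.19 and 5.46 ± 1.34 FPKM. Relative to the median of all genes, 9 of the 10 lay above it, but 4 of the 10 without wild-type replicate 1 and knockout replicate 3 together.

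Genes that interferon induces, the setting in which NMI and IFI35 are best known, had no common direction as deposited. Of a list of 20, 18 were tested, and 0 passed the adjusted threshold or an unadjusted p under 0.05. In the knockout 9 had a higher and 9 a lower mean, with a median log2 fold change of 0.01, while 81.7% of all genes had a lower mean. After trimmed-mean rescaling 13 were higher and 5 lower, while 56.8% of all genes were lower, and the same split was found with milk-free and quantile scaling. Of the 18, 14 lay above the median of all genes under each of these scalings. Without wild-type replicate 1 the split was 17 higher and 1 lower, and without wild-type replicate 3 it was 5 higher and 13 lower. The median of all genes was -0.10 and -0.32 in these settings, and 18 and 10 of the 18 lay above it. The highest level was in wild-type replicate 1 for 10 of the 18 and in knockout replicate 3 for 7, while over all genes tested knockout replicate 3 was highest for 7.74%. Bst2, which tethers virus particles to the cell, had 32.2, 21.8 and 13.4 FPKM in wild-type replicates 1 to 3 and 23.4, 25.7 and 30.6 FPKM in the knockout. The GTPase gene Gbp2 had 21.8 ± 8.45 FPKM in wild type against 19.8 ± 5.51 in the knockout (SD, n = 3 mice). Gbp3 and Ifi44 had the smallest p of the list, with log2 fold changes of 0.38 (SE 0.28) and 0.33 (SE 0.26), each at an adjusted p of 0.768 (limma). In both genes the higher knockout mean came with 1 library: knockout replicate 3 had 9.13 FPKM of Gbp3 and 3.16 FPKM of Ifi44. Without it the log2 fold changes were 0.07 and 0.03. The other knockout libraries had 4.62 and 4.01 FPKM of Gbp3 and 1.37 and 1.05 FPKM of Ifi44.

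**Figure D2:**
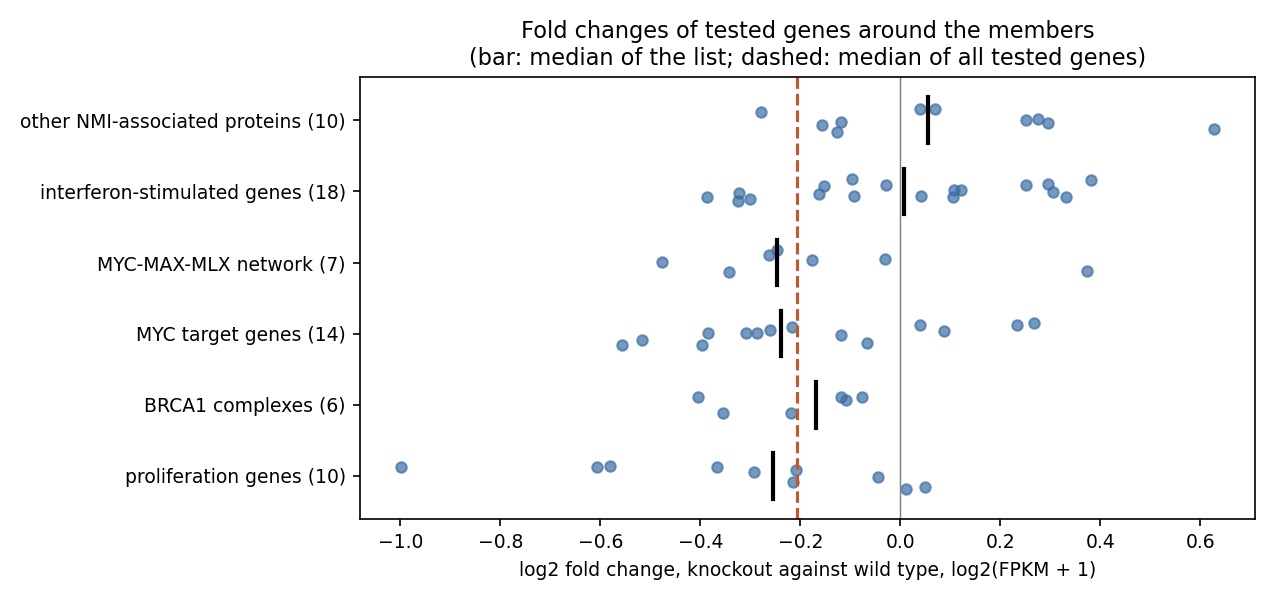
Log2 fold change of each tested gene (points) in 6 lists around Nmi and its partners, knockout against wild type on the log2(FPKM + 1) scale; the number in brackets is the number of tested genes, the short bar the median of the list and the dashed line the median of all genes tested (-0.21). The medians are 0.06 for the other NMI-associated proteins and 0.01 for interferon-stimulated genes, and between -0.25 and -0.17 for the MYC, BRCA1 and proliferation lists; the points are scattered vertically only to keep them apart.

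Myc, which encodes the transcription factor c-Myc, varied more between mice of a genotype than between genotypes. It lies at chr15:61985391-61990374 on the plus strand. Wild-type replicates 1 to 3 had 58.7, 44.0 and 27.0 FPKM, and knockout replicates 1 to 3 had 25.3, 49.0 and 18.8 FPKM. Knockout replicate 2 was the second highest of the 6 libraries, and wild-type replicate 3 stood near knockout replicate 1. The means were 43.2 ± 15.9 and 31.0 ± 15.9 FPKM (SD, n = 3 mice), or a log2 fold change of -0.51 (SE 0.39, 95% confidence interval -1.37 to 0.35, limma adjusted p = 0.768, exact permutation p = 0.4). Single libraries moved it by over 1.5 times. Leaving out wild-type replicate 1 gave -0.26, knockout replicate 3 gave -0.22, wild-type replicate 3 gave -0.81 and knockout replicate 2 gave -0.89. Without wild-type replicate 1 and knockout replicate 3 together it was 0.03, in the other direction.

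The 3 libraries with the most Myc, wild-type replicates 1 and 2 and knockout replicate 2, were also the 3 with the smallest milk share and the highest summed FPKM of luminal, basal, endothelial and adipocyte markers. Other marker sums did not share this split. The fibroblast sum was 32.9 FPKM in knockout replicate 3 against 30.7 in wild-type replicate 1. The immune sum was highest in wild-type replicate 3, at 7.44 FPKM. Markers of Schwann cells and melanocytes summed to 15.8 FPKM in knockout replicate 1 against 15.0 in wild-type replicate 1. The basal sum was 777, 632 and 375 FPKM in wild-type replicates 1 to 3 and 293, 1063 and 306 FPKM in the knockout. The endothelial sum was 77.6, 67.8 and 40.6 FPKM in wild type and 46.4, 77.5 and 40.3 FPKM in the knockout. The luminal sum was 3306 FPKM or more in these 3 libraries and 2575 FPKM or less in the others, and the adipocyte sum, nearly all Fabp4, was at least 441 and at most 264 FPKM. Of these markers, Krt14 of the basal list was at 44.6 to 149 FPKM and Pecam1 of the endothelial list at 14.5 to 33.7 FPKM. This likeness was noticed after the values were seen, and the part of the milk share or of these cell types in the Myc level was not tested.

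Mycn, which encodes the N-Myc protein after which NMI is named, was at the edge of detection in all libraries. It lies at chr12:12936093-12941914 on the minus strand. Wild-type replicates 1 to 3 had 0.118, 0.227 and 0.0659 FPKM, and knockout replicates 1 to 3 had 0.170, 0.170 and 0.176 FPKM. At the estimated depth this is 5 to 15 fragments in a library, and the exact Poisson intervals of the lowest and the highest library, 1.62 to 11.7 and 8.40 to 24.7 fragments, overlap. Mycn did not enter the test. In a fit without the filter its log2 difference was 0.05 (exact permutation p = 0.5), and a difference was not detectable at this depth. MYCL, the remaining member of the MYC family, was as low: Mycl was at 0.0747 to 0.366 FPKM. Of the family, Myc thus had the highest level in each library.

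Max, the obligate dimer partner, had a lower mean in the knockout by a margin that depended on how the libraries were scaled. The gene lies at chr12:76937269-76962201 on the minus strand and overlaps the annotated transcript Gm47218. Wild-type replicates 1 to 3 had 29.3, 23.0 and 22.7 FPKM, and knockout replicates 1 to 3 had 22.4, 21.5 and 15.3 FPKM. The groups do not overlap, but the gap between the lowest wild-type and the highest knockout library is small beside the spread within either group. The means were 25.0 ± 3.73 and 19.7 ± 3.83 FPKM (SD, n = 3 mice). Its log2 fold change came to -0.34 (SE 0.26, 95% confidence interval -0.91 to 0.24, limma adjusted p = 0.768), and the exact permutation p was 0.1, the smallest possible. It was -0.17 without knockout replicate 3, -0.22 without wild-type replicate 1 and -0.06 without both. The groups overlapped after trimmed-mean rescaling (-0.13), after scaling to all FPKM outside milk genes (-0.13) and after quantile normalization (-0.12). In FPKM scaled to all FPKM outside milk genes, Max was at 21.5 to 24.9 in wild type and at 19.9 to 22.6 in the knockout.

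Myc exceeded Max in every library, as a ratio taken within each library and so free of the library's scaling. The ratio of Myc to Max FPKM was 2.00, 1.91 and 1.19 in wild-type replicates 1 to 3 and 1.13, 2.28 and 1.22 in the knockout. The genotypes are interleaved. The log2 ratio differed by -0.18 between knockout and wild type (exact permutation p = 0.9), and it was 0.01 without knockout replicate 1 and 0.09 without wild-type replicate 1 and knockout replicate 3 together.

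The other genes of the network that competes for MAX or runs beside it, 10 in the list, differed in level. Those tested had means of 2.27 to 18.1 FPKM over all libraries. Mycl, Mxd3 and Mlxipl, with means of 0.201, 0.153 and 0.340 FPKM, lay under the filter. Of 7 tested, 0 passed the adjusted threshold or an unadjusted p under 0.05, and 6 had a lower and 1 a higher knockout mean, with a median log2 fold change of -0.25 beside -0.21 for all genes. The median was -0.11 without knockout replicate 3, beside -0.08 for all genes in that setting. After trimmed-mean rescaling 4 were lower and 3 higher. The most abundant were Mxd4, a MAX partner that represses E-box genes, with 19.5 ± 2.77 FPKM in wild type against 16.6 ± 4.56 in the knockout, and Mlxip, a glucose-sensing factor, with 17.1 ± 3.92 and 15.0 ± 3.25 FPKM (SD, n = 3 mice). Mxi1, another repressive MAX partner, had 7.86 ± 1.13 and 5.59 ± 2.09 FPKM. Mnt, which opposes MYC at its targets, was the tested gene of the list with groups that did not overlap. With the knockout lower, this was so for 3.83% of all genes tested. Mnt had 6.95, 6.70 and 7.52 FPKM in wild-type replicates 1 to 3 and 5.16, 5.61 and 5.27 FPKM in the knockout. Its log2 fold change was -0.34 (SE 0.21, limma adjusted p = 0.768). Its highest library was wild-type replicate 3 and its lowest knockout replicate 1. The log2 fold change of Mnt was -0.38 to -0.30 with 1 library left out, and its groups overlapped after trimmed-mean rescaling (-0.16), after scaling to all FPKM outside milk genes (-0.16) and after quantile normalization (-0.12).

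Genes that MYC is known to induce had a median close to that of all genes. Of a list of 15, 14 were tested, 0 passed the adjusted threshold or an unadjusted p under 0.05, and 10 had a lower and 4 a higher knockout mean, with a median log2 fold change of -0.24. The median moved to -0.09 when wild-type replicate 1 was left out, to -0.15 when knockout replicate 3 was, and to -0.07 with neither of them. The median of all genes moved as well, to -0.10, -0.08 and 0.02 in these settings. After quantile normalization 7 were lower and 7 higher. Ldha, of glycolysis, had 101 ± 10.4 FPKM in wild type against 111 ± 39.6 in the knockout, and the mitochondrial chaperone gene Hspd1 had 50.7 ± 17.1 and 46.8 ± 4.37 FPKM (SD, n = 3 mice). The ribosome assembly gene Nop56 had the smallest p, with 22.2, 14.3 and 12.3 FPKM in wild-type replicates 1 to 3 and 8.90, 12.8 and 9.81 FPKM in the knockout, or a log2 fold change of -0.56 (SE 0.28, limma adjusted p = 0.768). That was -0.32 without wild-type replicate 1 and -0.28 without that library and knockout replicate 3. The groups of Nop56 overlapped as deposited and after quantile normalization (-0.33), but not after trimmed-mean or milk-free scaling (-0.35 in both). Under the latter scalings 389 and 435 of the 9767 genes tested were apart with the knockout lower. Cdk4, a cell cycle kinase, had 23.5 ± 7.82 and 16.8 ± 8.09 FPKM. Tert, the telomerase gene, which was described as a target of the complex of NMI, BRCA1 and MYC, was at 0.0798 to 0.103 FPKM in wild type and at 0.128 to 0.143 FPKM in the knockout. These groups do not overlap, against 1.41% of the 17739 genes apart in this direction when no filter is applied. Tert, named for this role, lay under the filter, and in the fit without it the log2 difference was 0.06 (limma adjusted p = 0.829). These values lie within the range of Mycn, 0.0659 to 0.227 FPKM, which was at the edge of detection. Fragments of Tert were not estimated, so the counting error of its difference is not known.

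Brca1 was low in all libraries and highest in 1 knockout library. The gene lies at chr11:101488764-101551955 on the minus strand. Wild-type replicates 1 to 3 had 0.265, 0.272 and 0.442 FPKM, and knockout replicates 1 to 3 had 0.204, 0.199 and 0.797 FPKM. Knockout replicate 3 was the highest of all and wild-type replicate 3 the second, while knockout replicates 1 and 2 were the lowest. The knockout mean was 0.400 ± 0.344 FPKM and the wild-type mean 0.327 ± 0.100 FPKM (SD, n = 3 mice), and without knockout replicate 3 the knockout mean was 0.202 FPKM, so the order of the means rests on that library. In estimated fragments, knockout replicate 3 had 152 (exact Poisson interval 129 to 178) and wild-type replicate 3 had 87 (69.7 to 107). The difference between these libraries therefore exceeded counting error. Brca1 lay under the filter, and in a fit without it the log2 difference was 0.05 (limma adjusted p = 0.922, exact permutation p = 1).

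The same 2 libraries were highest, in the same order, for 5 of the 15 genes in the proliferation list, while 9 of the 15 were highest in wild-type replicate 1 and 1 in wild-type replicate 3. Of the 5, Mcm5, of the replication helicase, had 1.13, 0.640 and 3.15 FPKM in wild-type replicates 1 to 3 and 0.586, 0.860 and 4.03 FPKM in the knockout, and Mki67, the proliferation marker Ki-67, had 2.82, 1.90 and 4.32 FPKM in wild type and 0.983, 1.80 and 10.7 FPKM in the knockout. These 2 genes were picked after their values were seen and serve as a description. Bard1, the partner without which BRCA1 is unstable, had the same 2 libraries on top in the other order and close to wild-type replicate 1, with 0.204, 0.0649 and 0.238 FPKM in wild type and 0.0673, 0.131 and 0.213 FPKM in the knockout. Knockout replicate 3 and then wild-type replicate 3 were also highest for 10 of the 19 milk genes, so this order was not particular to proliferation genes. They were the 2 libraries with the greatest milk share, 76.7% and 70.8% of all FPKM. The parts of proliferation and of the milk share in the Brca1 level were not tested.

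**Figure D3:**
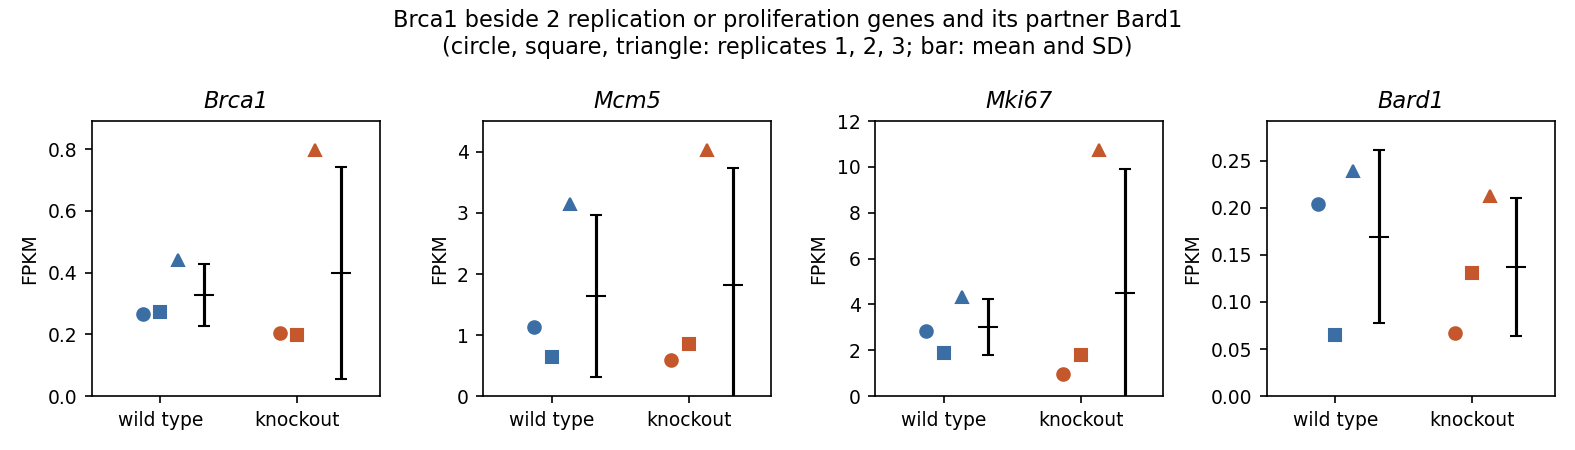
FPKM of Brca1, of 2 genes of replication or proliferation and of Bard1 in each library (circle, square and triangle are replicates 1 to 3; bars are the mean and SD, n = 3, cut off at 0). Knockout replicate 3 and then wild-type replicate 3 are highest for Brca1 and for Mcm5 and Mki67, which were picked for it, and wild-type replicate 3 is highest for Bard1.

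Proliferation genes as a list had 10 of 15 members tested, with 0 past the adjusted threshold, 1 at an unadjusted p under 0.05 and 8 with a lower knockout mean, against 0%, 1.33% and 81.7% of all genes tested, and a median log2 fold change of -0.25. Knockout replicate 1 was the lowest library for 10 of these 10, against 8.63% of all genes tested. Knockout replicate 3 and wild-type replicate 1 were the highest for 5 each. The mitotic kinase gene Cdk1 was the gene with the smallest p, with 2.04, 1.00 and 1.41 FPKM in wild-type replicates 1 to 3 and 0.308, 0.535 and 1.07 FPKM in the knockout. Pcna, the sliding clamp of replication, had 13.0 ± 0.591 FPKM in wild type against 10.6 ± 2.41 in the knockout, and Ube2c, which helps cells leave mitosis, had 5.65 ± 3.26 and 2.39 ± 2.14 FPKM (SD, n = 3 mice). Without knockout replicate 3, 10 of 10 had a lower knockout mean with a median of -0.62, 0 past the adjusted threshold and 6 at an unadjusted p under 0.05. In that setting 71.4% of all genes had a lower knockout mean and 0.604% an unadjusted p under 0.05. Without knockout replicate 1 the split was 5 lower and 5 higher.

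Partners of BRCA1 in its repair complexes, 12 in the list, were of low level, and 6 were tested. All 6 had a lower knockout mean as deposited, with 0 past the adjusted threshold or an unadjusted p under 0.05 and a median log2 fold change of -0.17, but 3 of the 6 after trimmed-mean rescaling and 3 of the 6 without wild-type replicate 1. Babam1, a scaffold of the complex that brings BRCA1 to ubiquitin chains, had 7.04 ± 1.73 FPKM in wild type against 6.31 ± 0.452 in the knockout (SD, n = 3 mice). Bre, the older symbol of Babam2, of the same complex, had 5.72 ± 1.33 and 4.37 ± 1.72 FPKM. Rbbp8, which encodes the DNA end resection factor CtIP, had 7.66, 3.32 and 3.33 FPKM in wild-type replicates 1 to 3 and 3.12, 4.36 and 2.17 FPKM in the knockout, and only wild-type replicate 1 stood above the knockout libraries.

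Sox10 had the highest level of the 7 genes in each of the 6 libraries, and its own lowest value in knockout replicate 3. The gene lies at chr15:79154908-79165240 on the minus strand. Wild-type replicates 1 to 3 had 129, 93.6 and 91.9 FPKM, and knockout replicates 1 to 3 had 94.5, 79.6 and 43.5 FPKM. Knockout replicate 1 lay among the wild-type values, and the other knockout libraries lay below them. The means were 105 ± 21.2 and 72.5 ± 26.2 FPKM (SD, n = 3 mice), or a log2 fold change of -0.58 (SE 0.34, 95% confidence interval -1.33 to 0.17, limma adjusted p = 0.768, exact permutation p = 0.3). Leaving out knockout replicate 3 gave -0.25, leaving out wild-type replicate 1 gave -0.42, and leaving out both gave -0.10. Without knockout replicate 1 it was -0.81 and the groups no longer overlapped. In that setting 943 of the 9767 genes tested were apart with the knockout lower, against 374 with all libraries. After scaling to all FPKM outside milk genes the log2 fold change of Sox10 was -0.37. Its level was then at 87.4 to 101 in wild type and at 56.4 to 95.3 in the knockout.

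Sox10 is also known from Schwann cells and melanocytes, and markers of these cells were read beside it. Mbp, a myelin gene, was at 7.77 to 15.8 FPKM in the 6 libraries, with overlapping groups. S100b of Schwann cells was at 0 to 0.243 FPKM, and the melanocyte genes Mitf and Pmel were at 0.185 to 0.386 and at 0.144 to 0.310 FPKM. Summed luminal markers were, like Sox10, highest in wild-type replicate 1 and lowest in knockout replicate 3, as were 63.5% and 65.8% of all genes tested. The sums were 5195, 3440 and 2570 FPKM in wild-type replicates 1 to 3 and 2575, 3306 and 1041 FPKM in the knockout. Elf5, of the same list, differed from the sum, with 173, 159 and 171 FPKM in wild type and 237, 142 and 207 FPKM in the knockout. The part of luminal cells in the Sox10 level was not tested. Of the related SOXE genes, Sox9 had 23.2, 34.6 and 27.8 FPKM in wild type and 24.7, 37.5 and 31.4 FPKM in the knockout (log2 fold change 0.12, SE 0.28, limma adjusted p = 0.852, and -0.01 without wild-type replicate 1), and Sox8 was at 0.0570 to 0.141 FPKM. The ratio of Sox10 to Sox9 ran from 1.39 in knockout replicate 3 to 5.58 in wild-type replicate 1.

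**Figure D4:**
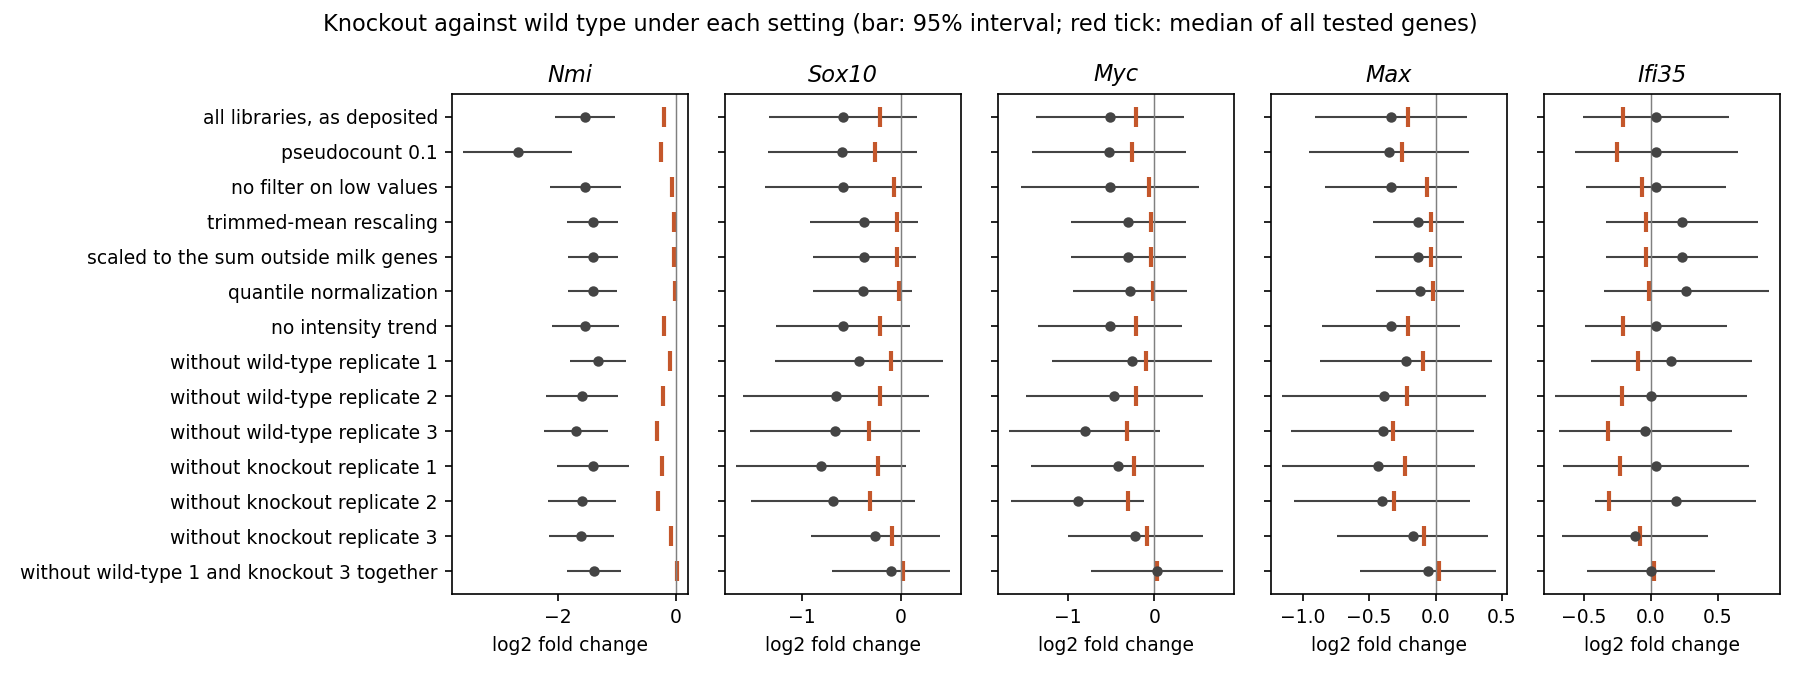
Log2 fold change of the 5 tested genes, knockout against wild type, under each scaling, filter and choice of libraries without quality weights (points, with 95% confidence intervals); the tick is the median of all genes tested under that setting, and the panels have different axes. Nmi lies between -2.69 and -1.32 throughout, while the intervals of Sox10, Max and Ifi35 include 0 in each row and that of Myc in all but 1, without knockout replicate 2.

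The profiles of the members over the 6 libraries were unlike one another. Likeness was measured as the root mean square difference between log2(FPKM + 1) profiles, each centred on its own mean, so a smaller value is a closer profile. The closest pair of members was Max and Sox10, at 0.22, which share wild-type replicate 1 as the highest and knockout replicate 3 as the lowest library, each of which was also the most frequent case among all genes tested. Nmi was at 0.65 or more from each of the other 4 tested members. Among all genes tested, the closest to Nmi were Cdk5rap1 (0.29), Psat1 (0.38) and Lncppara (0.39). Each was lower in the 3 knockout libraries, which largely follows from the choice by likeness to Nmi. The closest to Ifi35 were Pole4 (0.07), Stat2 (0.07) and Apip (0.08). Stat2 itself is a gene of the interferon list, with 5.76, 4.41 and 3.62 FPKM in wild-type replicates 1 to 3 and 4.61, 4.02 and 6.49 FPKM in the knockout. Among the closest to Myc were Dtx2 (0.07) and Clic4 (0.08), to Max Elof1 (0.02) and Aar2 (0.03), and the closest to Sox10 were Abtb1 (0.07), Tpra1 (0.08) and Trim11 (0.08). With 6 libraries and 9767 genes, close matches are found for most genes, and no p-value is attached.

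Around Nmi on chromosome 2, the nearest protein-coding genes had smaller differences. Rbm43, the nearest, had 0.836, 0.857 and 0.365 FPKM in wild-type replicates 1 to 3 and 0.579, 1.09 and 0.733 FPKM in the knockout, under the filter. Tnfaip6 had a log2 fold change of -0.16 (SE 0.32), Rif1, a regulator of replication timing, of -0.06 (SE 0.20) and Rnd3 of -0.23 (SE 0.30), with limma adjusted p from 0.779 to 0.894. Without wild-type replicate 1 these were 0.10, -0.00113 and 0.00754. Their 95% confidence intervals, from -0.88 to 0.54 over the 3 genes, did not reach that of Nmi.

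Ifi35 and Brca1 are close neighbours on chromosome 11. The end of Ifi35 lies 30.1 kb from the gene body of Brca1, and their start sites are 103.5 kb apart, with Rnd2 and Vat1 in between. Vat1 had 76.9, 48.6 and 41.8 FPKM in wild-type replicates 1 to 3 and 38.0, 46.4 and 28.4 FPKM in the knockout, with a log2 fold change of -0.53 (SE 0.31, limma adjusted p = 0.768), which became -0.28 on leaving out wild-type replicate 1 and -0.35 on leaving out knockout replicate 3. Nbr1, which encodes an autophagy receptor and starts 0.194 kb from Brca1 on the opposite strand, was nearly constant, at 26.1 to 29.1 FPKM in all 6 libraries. Brca1 beside it ran from 0.199 to 0.797 FPKM.

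**Figure D5:**
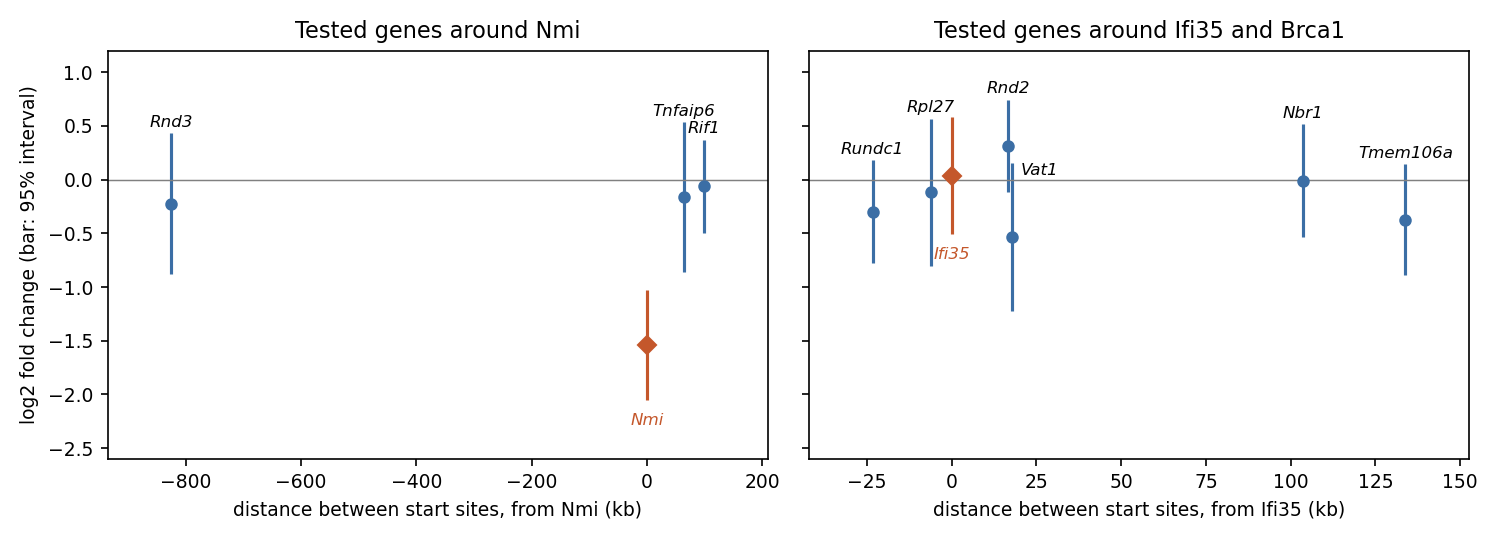
Log2 fold change, knockout against wild type, of tested genes near Nmi and near Ifi35 and Brca1 (points, with 95% confidence intervals) against the distance between start sites in kb; the diamond is Nmi or Ifi35 itself. Nmi lies at -1.54 while its tested neighbours lie between -0.23 and -0.06, and Ifi35 lies at 0.04 among neighbours from -0.53 to 0.31.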

How the data were processed

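RNA-seq libraries of 6 mice were compared, 3 wild type and 3 Nmi knockout. The authors deposited FPKM for 17739 gene symbols in 1 table, made with TopHat, SAMtools and Cufflinks after FastQC, with mm10 and GRCm38 as builds, per the submitters' processing notes; no source used here names versions, annotation or strand setting. Because FPKM is relative to the library's total, abundant milk RNA lowers other genes. No counts were used. Depth was estimated from genes with 1 transcript of at least 2000 bases and FPKM under 0.1, whose most frequent value was taken as 1 fragment over the length less 200 bases. Fragments of a member were then computed from its longest transcript, so they are approximate.

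Genes with at least 1 FPKM in at least 3 libraries (9767) were compared as log2(FPKM + 1) with limma 3.58.1 in R 4.3.3, with an intensity trend, two-sided, with Benjamini-Hochberg adjustment over all of them at 0.05. The fit was tested on simulated data. Alternatives were a pseudocount of 0.1, no filter, trimmed-mean, milk-free and quantile scaling, no intensity trend, library quality weights and left-out libraries. Single genes and ratios had exact two-sided permutation tests. Each mouse has its own number in the labels, so mice were treated as separate animals. Positions come from GENCODE M21 (GRCm38). None of the 7 genes had another gene with 95% identity over 50% of its longest transcript (BLAST 2.17.0).

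The members and gene lists were chosen with earlier results of these data known. Genes named from a list were its 2 most abundant and its 2 of smallest p; the 3 closest profiles and the 3 neighbours on each side were named by rule, of which those with no column or under the filter were mostly left out. Other named genes are stated as picked after their values were seen or serve as markers. Some genes that these rules or lists take in are not reported here.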

Additional observations from a re-analysis of the deposited data

How the results depend on the processing

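Across 15 alternatives, the count of genes past the adjusted threshold stayed at 0 in 12, leave-one-out fits included (0 to 0, and 0 to 0 for the members). It was 7740, with 3 members (Nmi, Myc and Ifi35), under limma's default library quality weights, whose estimation did not converge and gave weights from 0.111 to 39.2, so it rests almost wholly on 1 library per genotype. With gene-by-gene weights, added after the data were seen (0.307 to 5.50), it was 2, of which 1 was a member, Nmi, and without wild-type replicate 1 and knockout replicate 3 together it was 1, no member. The log2 fold change of Nmi was -1.68 (limma adjusted p = 6.24e-13) and -1.59 (limma adjusted p = 0.000671) with the 2 kinds of weights, -1.70 to -1.32 with 1 library left out, and its adjusted p ran up to 0.862. Genes at an unadjusted p under 0.05 numbered 130 as deposited, 326 of 17739 without a filter, and 25 to 1187 with 1 library left out. Ifi35 ran from -0.12 to 0.19 with 1 library left out and turned to -0.12 without knockout replicate 3, -0.04 without wild-type replicate 3 and -0.000497 without wild-type replicate 1 and knockout replicate 3 together, Myc to 0.0309 without those 2, and Sox10 to 0.00599 with the default weights. The Myc to Max log2 ratio was -0.49 to 0.01 with 1 library left out (0.00705 without knockout replicate 1) and 0.0882 without both end libraries. The causes were not tested. No paired analysis was possible because the mouse numbers in the labels are not shared between the genotypes. Low depth limits Mycn, Brca1 and knockout Nmi most.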
